A study of Mus musculus with 4 samples.

Results

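Macrophages of the testis were followed here through 10 genes, 5 of the MHC class II pathway (H2-Aa, H2-Ab1, H2-Eb1, Cd74 and Ciita) and 5 that mark tissue macrophages (Mrc1, Cx3cr1, Csf1r, Cd163 and F13a1). They were picked by symbol, as genes used to tell apart testicular macrophages, and they are 10 of the 55357 genes in the count tables. The data were raw counts of unique molecular identifiers (UMIs, 1 per captured RNA molecule) from single nuclei of whole mouse testis, with 2 WT and 2 Dhx37-/- libraries from mice of 8 weeks. The study describes the Dhx37-/- mice as carrying Dhx37 flox/flox and Amh-Cre, a Cre driven in Sertoli cells, so macrophages themselves were not the targeted cells, and the WT mice as littermates. The labels call the libraries of each genotype biological replicates.

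MHC class II molecules are pairs of an alpha and a beta chain that show peptides to CD4+ T cells. In the adult mouse testis, macrophages between the tubules are known for CSF1R and MRC1 with little MHC II, while those on the peritubular wall are known for MHC II. CIITA is the master co-activator of the MHC II genes and acts through factors that sit on a short conserved stretch before each gene, which includes a CCAAT element bound by NF-Y.

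Sequences are shown because the shared control of the MHC II genes is read from the letters in front of them. The promoter table held 6 of the 10 genes (RefSeq, GRCm38.p6). In the 150 bases before the start of H2-Aa (chr17:34287824-34287973, minus strand) and of H2-Eb1 (chr17:34305717-34305866, plus strand), capitals mark CCAAT or its reverse complement and ACNGATG on either strand.
H2-Aa: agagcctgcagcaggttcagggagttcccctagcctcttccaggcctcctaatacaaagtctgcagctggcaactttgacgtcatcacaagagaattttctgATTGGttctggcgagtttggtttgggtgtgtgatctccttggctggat
H2-Eb1: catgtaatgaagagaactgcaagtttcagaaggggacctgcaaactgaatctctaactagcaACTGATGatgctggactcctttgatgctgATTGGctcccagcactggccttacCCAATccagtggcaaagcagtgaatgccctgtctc
CCAAT was present on either strand in 37.4% of the 32851 promoters of 300 bases in the same table, and ACNGATG in 9.85%, with both in 3.65%, and a match is a description only. Over the 300 bases H2-Aa also had an ACNGATG, at -232 to -226 from the start and so outside the stretch shown. It lay on the other strand and far from the CCAAT of H2-Aa (-48 to -44). In H2-Eb1 the ACNGATG (-88 to -82) lay close to a CCAAT (-59 to -55). Whether the H2-Aa match belongs to the shared stretch was not tested. ACNGATG was searched as the core of the X box, another element of that stretch. Only matches to these letters were marked, so lower case does not mean that H2-Aa lacks the element. The macrophage genes Mrc1, Cx3cr1 and Cd163 had a CCAAT in their 300 bases and no ACNGATG, as did 1 of the 2 entries of F13a1, whose other entry had neither.

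After filtering, 37054 nuclei remained, 9931 and 8293 in the WT and 8803 and 10027 in the Dhx37-/- libraries. The libraries held 51797891 to 75611263 UMIs over all barcodes and a median of 3299 to 4157 UMIs in a nucleus. Any pair of libraries shared 19 to 30 cell barcodes among these nuclei and none among macrophage-like nuclei. Dhx37 had 246 and 372 UMIs in the WT and 367 and 478 in the Dhx37-/- nuclei, a 3′ count over all cell types that does not check the deleted exon in Sertoli cells. Nuclei were clustered without the 10 genes among the variable genes, and the class called macrophage-like was the cluster in which 17 of 19 macrophage markers were raised.

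The macrophage-like class held 676 nuclei, 201, 89, 216 and 170 in WT replicates 1 and 2 and Dhx37-/- replicates 1 and 2, with a median of 2250, 2370, 2504.5 and 2985 UMIs. It made up 2.02% (95% Wilson interval 1.76 to 2.32%) and 1.07% (0.873 to 1.32%) of WT nuclei and 2.45% (2.15 to 2.80%) and 1.70% (1.46 to 1.97%) of Dhx37-/- nuclei. The shares overlapped between genotypes (1.55% ± 0.672 and 2.07% ± 0.536, SD, n = 2 each, two-sided exact permutation p = 0.667, where 2 against 2 cannot go below 0.333). Markers of lymphoid cells were present in this cluster. At least 2 T-cell markers were found in 13, 6, 44 and 29 of its nuclei, and all 10 T-cell markers had a higher fitted level in Dhx37-/- than in WT (summed level 326 and 437 CPM, UMIs per 1000000 UMIs of the class, in WT, 1193 and 1415 in Dhx37-/-), Themis and Skap1 being among those called. The Leydig-cell marker Insl3 was called higher as well, and Zbtb16, listed as a spermatogonial marker, lower. The part of these markers in the results below was not tested beyond the values given without such nuclei. The main results are also given for the 551 nuclei left after those with T-cell, B-cell or dendritic-cell markers were taken out. Of the 125 taken out, 92 held at least 2 T-cell, 27 B-cell and 7 dendritic-cell markers. Most dendritic-cell markers were thinly read (Xcr1 and Clec9a in 3 nuclei each, Flt3 in 9, though Zbtb46 in 76). Dendritic cells may thus remain among the 551 nuclei.

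Across the 8 named classes of nuclei, every one of the 10 genes had its highest mean level in macrophage-like nuclei. For 9 of them the highest library of any other named class lay below the lowest macrophage-like library. The exception was Cx3cr1, whose spermatocyte-like libraries (127 to 312) overlapped the macrophage-like ones (233 to 337). Levels are CPM over the summed nuclei of a class, and they are compared only within a gene.

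**Figure D1:**
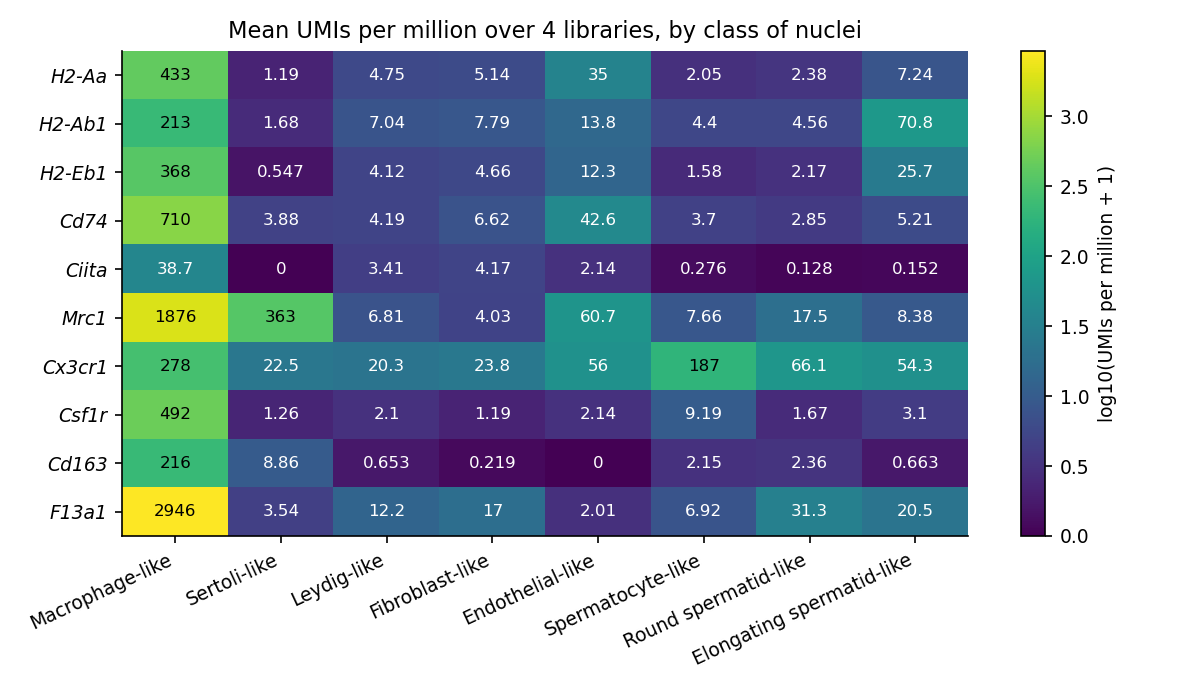
Mean level over the 4 libraries (CPM, printed in each cell, colour on a log10 scale) of the 10 genes (rows) in the 8 named classes of nuclei (columns). Each row is highest in macrophage-like nuclei, with Mrc1 also high in Sertoli-like nuclei (363), Cx3cr1 in spermatocyte-like nuclei (187) and H2-Ab1 in elongating spermatid-like nuclei (70.8).

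The MHC II genes were measured first. H2-Aa, the alpha chain of I-A, was at 472 and 526 CPM in WT macrophage-like nuclei and at 452 and 280 in Dhx37-/-. Its partner H2-Ab1, the beta chain, was at 219 and 197 in WT and 290 and 148 in Dhx37-/-. For H2-Eb1, the beta chain of I-E, the WT libraries gave 326 and 554 and the Dhx37-/- libraries 380 and 213. In all 3 genes Dhx37-/- replicate 2 was the lowest library.

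Cd74, the invariant chain that guides class II molecules to the endosome, was at 682 and 830 in WT and 720 and 609 in Dhx37-/-. Ciita was read thinly, with 73 UMIs in all, and was at 41.8 and 44.1 in WT and 45.9 and 22.9 in Dhx37-/-. The genotypes overlapped for H2-Ab1, H2-Eb1, Cd74 and Ciita, and for H2-Aa both WT libraries lay above both Dhx37-/- libraries.

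The macrophage genes were measured in the same nuclei. Mrc1, the mannose receptor CD206, was at 2127 and 1793 in WT and 1826 and 1757 in Dhx37-/-. Csf1r, the receptor on which macrophage survival depends, was at 470 and 473 in WT and 511 and 515 in Dhx37-/- (492 ± 24.3 over the 4 libraries, SD). Cx3cr1, the fractalkine receptor, was at 310 and 337 in WT and 233 in each Dhx37-/- library, so the groups did not overlap.

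Cd163, a scavenger receptor for haemoglobin, was at 215 and 197 in WT and 277 and 176 in Dhx37-/-. F13a1, the A subunit of coagulation factor XIII and a gene of resident macrophages, was at 2937 and 2343 in WT and 3338 and 3167 in Dhx37-/-, where the 2 Dhx37-/- libraries were the highest. The genotypes did not overlap for 4 of the 10 genes (H2-Aa, Cx3cr1, Csf1r and F13a1), a share close to that of all genes tested, of which 42.3% did not overlap.

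**Figure D2:**
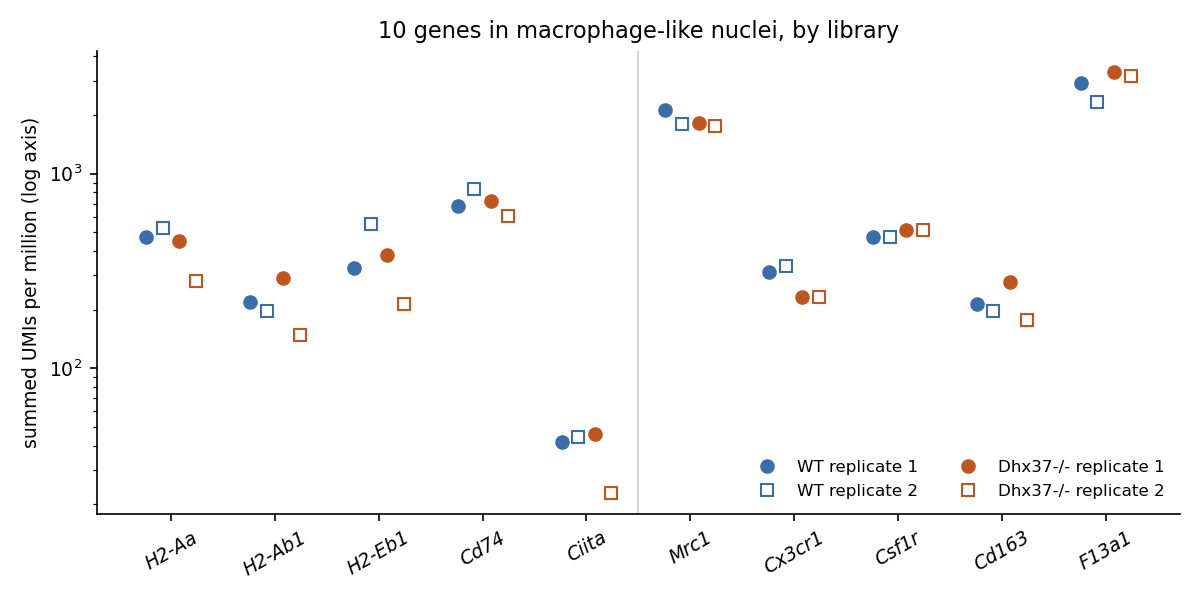
Level of each of the 10 genes in macrophage-like nuclei (CPM, log axis), 1 point per library, WT in blue and Dhx37-/- in orange, filled circles for replicate 1 and open squares for replicate 2. The genotypes overlap for 6 of the 10 genes and are apart for H2-Aa, Cx3cr1, Csf1r and F13a1.

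None of the 10 genes passed the test between genotypes in macrophage-like nuclei (edgeR quasi-likelihood test on summed counts, Benjamini-Hochberg adjusted p under 0.05), where 0.548% of 9854 genes did. The nearest were Cx3cr1 (log2 fold change -0.50 ± 0.22 SE, adjusted p = 0.360), H2-Eb1 (-0.56 ± 0.28, adjusted p = 0.447) and H2-Aa (-0.47 ± 0.24, adjusted p = 0.460). Leaving out a library leaves 1 library in that genotype, which is then assumed to vary like the other genotype, so calls made this way are no check on replicates. Without WT replicate 1, H2-Eb1 reached -0.90 with adjusted p = 0.0405, and the number of genes called rose from 54 to 307 (286 without WT replicate 2). In the 551 nuclei without T-cell, B-cell or dendritic-cell markers no member was called either (0.547% of 8591 genes were), and Cx3cr1 was at -0.31. In bulk sums of a class, a change in how many nuclei carry a gene cannot be told apart from a change in RNA per nucleus.

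Over all nuclei, none of the 10 genes was called, and no gene of 30033 was (0% called by edgeR, 4441 at an unadjusted p under 0.05, 273 by DESeq2). The fitted changes ran from -0.52 for Cx3cr1 to 0.43 for H2-Ab1. Leaving out WT replicate 1 gave Mrc1 a call (1.01, adjusted p = 0.00853) and Cx3cr1 one too (-0.98, adjusted p = 0.00441), with 6062 genes called in that fit and 1834 without WT replicate 2.

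The other genes of the pathway were read from lists. Among 14 regulators of MHC II genes, Jak1 was at 263 and 229 in WT and 275 and 286 in Dhx37-/- macrophage-like nuclei, Creb1 at 231 and 136 against 211 and 233, and Irf8, a factor of myeloid cells, at 87.5 and 92.3 against 116 and 113. Jak1 and Creb1 were highest in macrophage-like nuclei, while Irf8 had a higher mean in Leydig-like nuclei (219, against 102 in macrophage-like nuclei). Of the 11 regulators tested none was called (median log2 fold change 0.19, against 0.01 over all genes tested). Among 17 genes of peptide loading and processing, Ctsb, a cathepsin, Lgmn, the endosomal protease legumain, Marchf1, a ubiquitin ligase that takes MHC II off the surface, and Ctss, a cathepsin, were the most counted, with 987, 879, 756 and 628 UMIs, and of the 12 tested none was called (median 0.19). Marchf1 had a higher mean in round spermatid-like (530 CPM) than in macrophage-like nuclei (401), while Ctsb, Lgmn and Ctss were highest in macrophage-like nuclei. H2-Oa, H2-Ea and H2-Eb2 gave 1 UMI each over the 676 nuclei.

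Of 10 lineage factors, such as Spi1 and Maf, and of 17 tested genes of scavenging and tissue residence, such as Dab2, Stab1 and Mertk, none was called between genotypes in the class as a whole (medians -0.01 and 0.00). Only 1 of 8 genes for macrophage ligands, Tgfb1, had enough counts to be tested, and it was not called.

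Detection of the genes in single nuclei was then compared. An MHC II UMI was found in 40.8% and 52.8% of WT and 48.6% and 47.6% of Dhx37-/- macrophage-like nuclei, against 1.54 to 8.02% of Sertoli-like nuclei, which had a higher median depth of 6774 to 8621 UMIs. Of the other named classes, elongating spermatid-like nuclei had 16.7 to 25.4% and the few endothelial-like nuclei 9.41 to 37.5%, at median depths of 2370.5 to 2840 and 2334 to 2819 UMIs. With each nucleus thinned to 1000 UMIs, which left out 38 shallower nuclei (10, 3, 19 and 6 by library), the shares were 33.5% and 40.7% in WT and 38.1% and 32.9% in Dhx37-/- (37.1% ± 5.08 and 35.5% ± 3.64, SD, n = 2, exact permutation p = 0.667). The thinned values are used below for pairs of genes found in the same nucleus, while the numbers of nuclei by MHC II UMIs and the tests between nuclei use all UMIs unless thinning is named.

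The MHC II counts were not spread evenly. Of the 676 nuclei 361 had no MHC II UMI, 82 had 1, 50 had 2 to 4, 49 had 5 to 9 and 134 had 10 or more, with up to 68 in 1 nucleus. Nuclei with a single MHC II UMI numbered 7 and 9 in WT and 35 and 31 in Dhx37-/-, while nuclei with 10 or more numbered 46 and 25 in WT and 43 and 20 in Dhx37-/-. Of nuclei with at least 5 MHC II UMIs, 63 of 64 and 31 of 32 were macrophage-like in WT and 57 of 68 and 32 of 40 in Dhx37-/-.

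MHC II and the interstitial genes were found in the same nuclei. An MHC II UMI together with an Mrc1 or Csf1r UMI was seen in 24.1% and 26.7% of WT and 21.8% and 26.2% of Dhx37-/- nuclei after thinning (25.4% ± 1.88 and 24.0% ± 3.11, SD, n = 2, exact permutation p = 0.667), and in at most 0.610% of Sertoli-like nuclei of a library, the highest share in any other named class. The odds ratio of the 2 detections was 0.54 and 0.66 in WT and 0.71 and 1.78 in Dhx37-/-, where a value of 1 means that the detections were unrelated, and without thinning it was 0.56 and 2.19 in WT and 1.23 and 4.84 in Dhx37-/-, so its direction turned in 2 libraries. In nuclei without T-cell, B-cell or dendritic-cell markers it was 0.28, 0.40, 0.081 and 0.61 after thinning, and 0.26, 0.84, 0.078 and 1.30 without it, when Dhx37-/- replicate 2 lay above 1. These are descriptions over nuclei of 4 libraries, since nuclei of a library are not replicates.

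Taken gene by gene in those 516 thinned nuclei, the 10 pairs within the MHC II genes had a median odds ratio of 19.6, and 9 of them were above 1 in every library. H2-Aa and H2-Ab1, the genes of the 2 chains of I-A, were both found in 68 nuclei, with H2-Aa alone in 67 and H2-Ab1 alone in 17. The 25 pairs between an MHC II gene and a macrophage gene had a median of 0.347, with 13 below 1 in every library and none above 1 in every library.

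The lowest of these pairs all involved F13a1, from 0.0593 with Ciita to 0.0715 with H2-Eb1. The pairs with Csf1r and Cx3cr1 lay between 0.671 and 1.47, and the pairs with Cd163 and Mrc1 between 0.157 and 0.615. Among the macrophage genes Cd163 and F13a1 (odds ratio 15.8) and Mrc1 and F13a1 (11.7) were found together most, and only 2 of the 91 nuclei with a Cd163 UMI lacked F13a1.

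**Figure D3:**
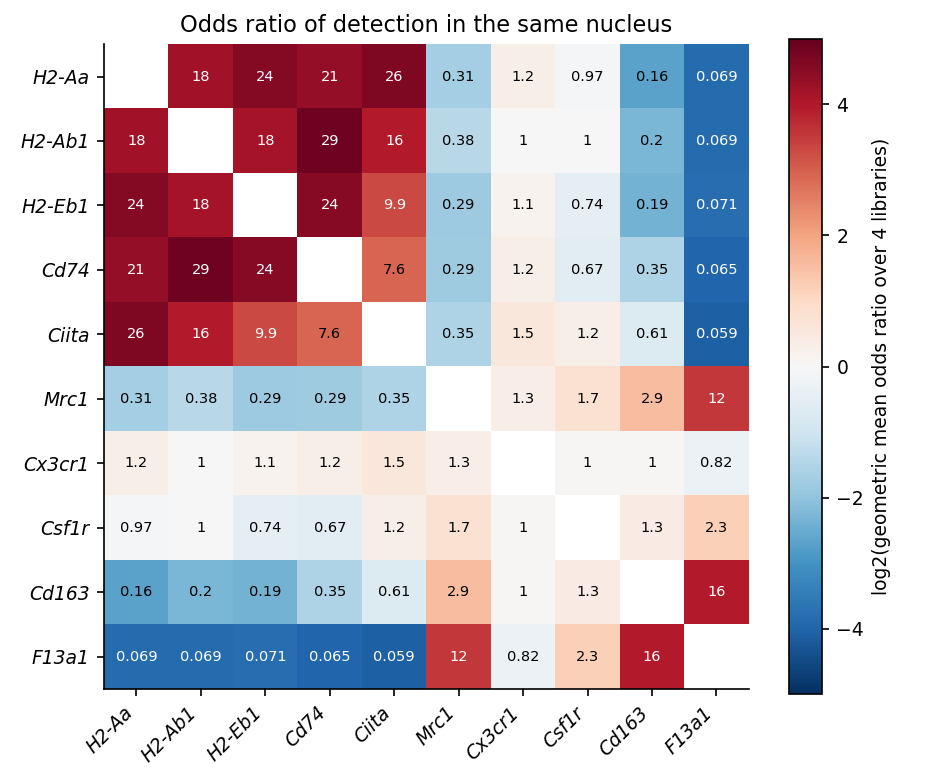
Odds ratio of detecting 2 genes in the same nucleus (geometric mean over 4 libraries, printed in each cell, colour on a log2 scale, red above 1 and blue below 1), for the 516 macrophage-like nuclei thinned to 1000 UMIs and without T-cell, B-cell or dendritic-cell markers. The block of MHC II genes is red throughout (7.60 to 28.9) and every MHC II row is darkest blue at F13a1.

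The 5 macrophage genes were next compared between macrophage-like nuclei with and without an MHC II UMI, with library as a term. None was called, where 0.365% of 6301 genes were. F13a1 stood at the largest negative value in nuclei with MHC II (log2 fold change -0.97 ± 0.33, adjusted p = 0.370), Mrc1 at -0.48 ± 0.23 and Cd163 at -0.60 ± 0.35, while Cx3cr1 was at 0.40 ± 0.22 and Csf1r at 0.11 ± 0.21. The 14 genes called higher with MHC II included Creb5 (3.30), Ptchd1 (4.18), Gm15155 (3.26), Alcam (2.63), an adhesion receptor for CD6, Gm35154 (1.84), Arhgap22 (1.72), Tgfbr1 (1.64), a TGF-beta receptor, and Fmnl2 (1.42).

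The 9 called lower included Bcl11b (-3.99), Cd226 (-3.45), Sntb1 (-3.20), Scart1 (-2.95), Skap1 (-2.89), Prkcq (-1.89), Ikzf2 (-1.81) and Pitpnc1 (-1.06). Genes of T cells were among them, such as Bcl11b, Skap1 and Prkcq. Of nuclei without MHC II, 9.24% and 14.3% in WT and 33.3% and 30.3% in Dhx37-/- held at least 2 T-cell markers. With MHC II the shares were 2.44% and 0% in WT and 6.67% and 2.47% in Dhx37-/-. So the nuclei without MHC II were not all macrophages, and less so in Dhx37-/-. The count of called genes was 0 without WT replicate 1, 13 without WT replicate 2, 8 without Dhx37-/- replicate 1 and 41 without Dhx37-/- replicate 2.

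Without the nuclei holding T-cell, B-cell or dendritic-cell markers, 1.89% of 4868 genes were called, and F13a1 was among them (-1.15 ± 0.27, adjusted p = 0.0479), as were Stab1 and Maf (lower) and Tgfbr1 (higher). With thinning to 1000 UMIs F13a1 was at -1.63 (adjusted p = 2.7e-04) and Mrc1 at -0.91 (adjusted p = 0.00512). Of 23 genes called in the full class, 14 could be tested without the lymphoid nuclei and 12 were called in the same direction.

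The macrophage genes were then read by the number of MHC II UMIs in a nucleus. With a single MHC II UMI F13a1 was at 3743 and 4047 CPM in WT and 3544 and 4482 in Dhx37-/-, against 3993 and 3663 and 4031 and 2808 with none. With 10 or more it was at 54.3 and 342 in WT and 1337 and 810 in Dhx37-/-, below the level with none in each library. Mrc1 was at 2563 and 2433 in WT and 1988 and 1642 in Dhx37-/- with none, at 2699 and 2966 and 2373 and 2396 with 1, and at 858 and 777 and 837 and 997 with 10 or more. So both genes were lower at 10 or more MHC II UMIs than at none in all 4 libraries. Mrc1 was higher at 1 than at none, but the nuclei with none included those with T-cell markers. Without nuclei holding T-cell, B-cell or dendritic-cell markers, Mrc1 with none was at 2728 and 2760 in WT and 2718 and 2303 in Dhx37-/-. The step of Mrc1 from none to 1 is therefore not read.

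**Figure D4:**
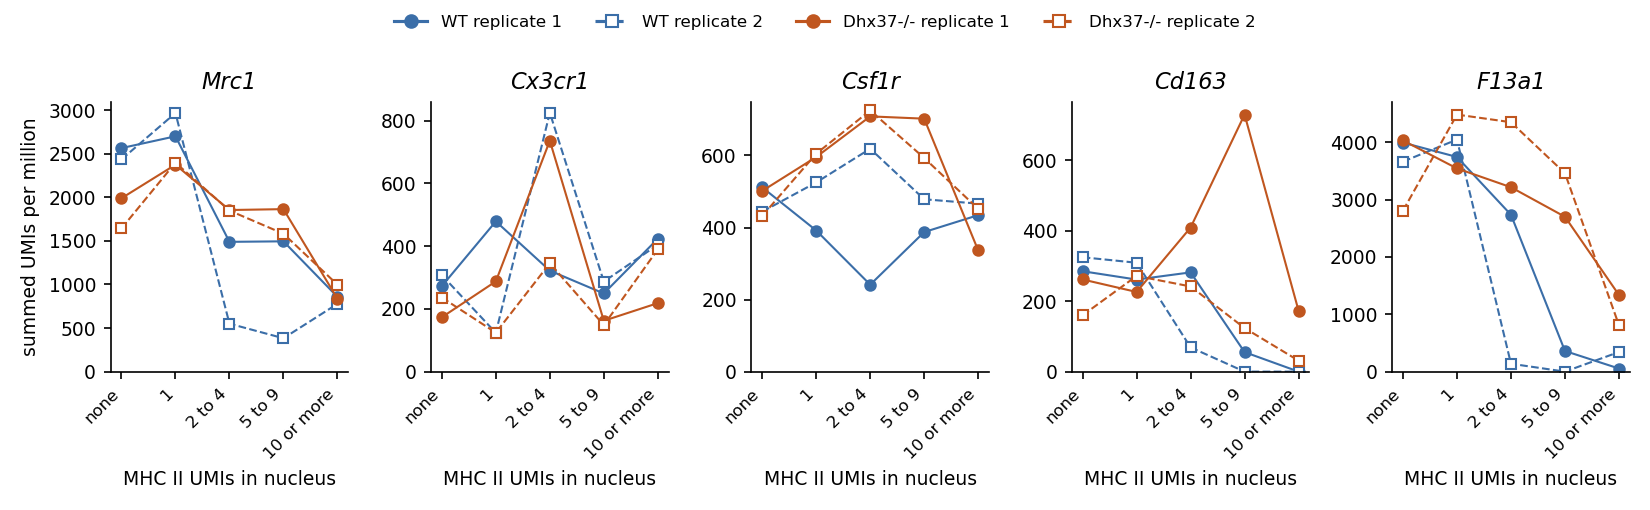
Level of the 5 macrophage genes (CPM, axes from 0) in macrophage-like nuclei grouped by MHC II UMIs in the nucleus (horizontal axis), 1 line per library, WT in blue and Dhx37-/- in orange, solid lines for replicate 1 and dashed lines for replicate 2. F13a1 is low from 5 MHC II UMIs on in both WT libraries and higher in both Dhx37-/- libraries, and Mrc1 is lower at 10 or more MHC II UMIs than at none in all 4.

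Nuclei with at least 5 MHC II UMIs were then compared with nuclei having none, a split chosen after the values above had been seen. In them 5.88% of 3399 genes were called. F13a1 was lower by 2.41 on the log2 scale (-2.41 ± 0.56, adjusted p = 0.0242) and Mrc1 was lower too (-1.07 ± 0.25, adjusted p = 0.0242), while Cd163 was at -1.54 ± 0.58 (adjusted p = 0.143), Csf1r at -0.03 and Cx3cr1 at 0.36. Irf8, H2-DMa and Ctss, a regulator of myeloid cells, a chain of the peptide-loading H2-DM and an endosomal cathepsin, were called higher. Lgmn, Maf, Mertk, Msr1 and Stab1 were called lower. Over whole classes Irf8 had a higher mean in Leydig-like (219 CPM) than in macrophage-like nuclei (102). H2-DMa was higher in spermatocyte-like nuclei (110 against 57.5, with free RNA at 47.8). Ctss and the 5 lower genes were highest in macrophage-like nuclei among the named classes. Without nuclei holding T-cell, B-cell or dendritic-cell markers Irf8 and the 5 lower genes were called again, Ctss was not (0.60, adjusted p = 0.0714) and H2-DMa had too few counts.

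The genotypes differed in these nuclei. F13a1 was at 140 and 258 CPM in WT nuclei with at least 5 MHC II UMIs and at 1680 and 1835 in the Dhx37-/- nuclei (18 and 22 UMIs in 7 of 63 and 2 of 31 nuclei in WT, 247 and 192 UMIs in 14 of 57 and 17 of 32 nuclei in Dhx37-/-). In nuclei with no MHC II UMI it was at 3993 and 3663 in WT and 4031 and 2808 in Dhx37-/-. A single nucleus held 9 and 11 of the WT UMIs, which was 50% of them in each library, and 62 and 39 of the Dhx37-/- UMIs.

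Between genotypes in nuclei with at least 5 MHC II UMIs, F13a1 was called (log2 fold change 3.12 ± 0.38, adjusted p = 2.3e-04), where 3.07% of 3261 genes were, 37 higher and 63 lower. F13a1 was also called in DESeq2 (3.11), without nuclei holding T-cell, B-cell or dendritic-cell markers (3.22, adjusted p = 0.00775) and without nuclei that Scrublet marked as doublets (2.80, adjusted p = 0.032), and the call was lost with at least 10 MHC II UMIs (2.51, adjusted p = 0.0651). The count of called genes was 170 without WT replicate 1 and 9 without doublets.

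Genes of scavenging and clearance were read in the same fit. Of the 11 tested, Mertk, a receptor for dying cells, was at 175 and 128 CPM, here on the scaled totals of the tested genes, in WT and at 501 and 553 in Dhx37-/- (1.75 ± 0.40, adjusted p = 0.0212), and Stab1, another clearance receptor, at 281 and 202 against 522 and 1425 (1.95 ± 0.44, adjusted p = 0.0212). Neither call held without lymphoid or dendritic-cell markers (Mertk 1.74, adjusted p = 0.0758, Stab1 1.98, adjusted p = 0.0999) or without doublets (1.73, adjusted p = 0.0710, and 1.56, adjusted p = 0.158), and at 10 or more MHC II UMIs Stab1 was at 0.93 (adjusted p = 0.368) and Mertk had too few counts. Over whole classes Mertk had a mean of 573 CPM in macrophage-like, 267 in Sertoli-like and 269 in Leydig-like nuclei, and Stab1 876, 0.81 and 4.07. Markers of Sertoli and Leydig cells were found in larger shares of Dhx37-/- than of WT macrophage-like nuclei. Their part in the Mertk values was not tested. In the fit Clec10a had no count in either WT library and was at 205 and 207 in Dhx37-/-. It passed the filter on low counts only through the Dhx37-/- libraries, so its call is not read.

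Cd163 had too few counts for the test, with 2 and 0 UMIs in WT and 46 and 7 in Dhx37-/-. Mrc1 did not pass (1037 and 680 against 1095 and 1223 CPM, log2 fold change 0.37 ± 0.32, adjusted p = 0.621), nor did Csf1r (0.02 ± 0.32) or Cx3cr1 (-0.65 ± 0.35). In nuclei with no MHC II UMI, where 0.198% of 7067 genes were called, none of the 5 macrophage genes was (F13a1 -0.21 ± 0.24, adjusted p = 0.788).

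The difference between genotypes in the effect of MHC II was tested as an interaction. Of nuclei with an MHC II UMI, 7 of 82 and 9 of 47 in WT had only 1. In Dhx37-/- these were 35 of 105 and 31 of 81. With at least 5 MHC II UMIs against none, where 2% of 3399 genes were called, F13a1 differed by 3.31 ± 0.36 (adjusted p = 3.5e-05), from a fall in both WT libraries to a smaller one in both Dhx37-/- libraries. Cd163 was called as well (4.65 ± 0.82, adjusted p = 0.00368). The WT nuclei with at least 5 MHC II UMIs held only 2 and 0 of its UMIs, so neither this call nor its size is read. With any MHC II UMI, as first set out, 2.56% of 6301 genes were called, among them F13a1 (1.62 ± 0.29, adjusted p = 0.00656) and Cd163 (2.00 ± 0.40, adjusted p = 0.00934), and of 16 tested scavenging genes Mertk, Pf4, Gas6, Stab1 and Clec10a, all positive. Of the loading genes Ctsb and of the lineage factors Maf were called too. Cd209f was called too but had no count in the WT nuclei with MHC II, so its call is not read. Clec10a had only a few counts in those WT nuclei, so its calls for any MHC II UMI rest on low counts there. Mrc1 was not called (0.88 ± 0.25, adjusted p = 0.0600), nor were Csf1r (0.35 ± 0.31) and Cx3cr1 (-0.04 ± 0.37). Mrc1 was called after thinning to 1000 UMIs (0.98, adjusted p = 0.0188) and with at least 2 MHC II UMIs (0.96, adjusted p = 0.0473). With at least 5 it was not (0.83 ± 0.29, adjusted p = 0.165). Without lymphoid or dendritic-cell markers Mertk, Stab1, Clec10a and Ctsb were still called, and Pf4 (adjusted p = 0.114), Gas6 (0.0721) and Maf (0.145) were not. Without doublets Clec10a and Ctsb were called, and Mertk (adjusted p = 0.102), Stab1 (0.122), Pf4 (0.0658), Gas6 (0.131) and Maf (0.405) were not. Without nuclei holding T-cell, B-cell or dendritic-cell markers F13a1 was at 1.36 (adjusted p = 0.0177) and Cd163 at 1.43, no longer called (adjusted p = 0.0856). In those nuclei of Dhx37-/- replicate 2 F13a1 was at 3850 CPM with MHC II and 3888 without. Cd163 was also not called after thinning to 1000 UMIs (1.84, adjusted p = 0.222) or without doublets (1.61, adjusted p = 0.0778). Without WT replicate 1 F13a1 was at 1.40 (adjusted p = 0.126) and 51 genes were called, with 82 without WT replicate 2, and without doublets F13a1 was at 1.17 (adjusted p = 0.121).

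Other measured values moved with these groups or with genotype. Nuclei with at least 5 MHC II UMIs had a median of 1546 and 1807 UMIs in WT and 2106 and 2893.5 in Dhx37-/-. Scrublet marked 8 of 63, 8 of 31, 8 of 57 and 3 of 32 of them, against 4.24 to 4.57% of all nuclei of a library. Of nuclei with no MHC II UMI it marked 6 of 119, 1 of 42, 15 of 111 and 7 of 89. At least 2 of 9 Leydig-cell markers were found in 8.96% and 4.49% of WT and 27.3% and 23.5% of Dhx37-/- macrophage-like nuclei (summed level 209 and 96.3 against 734 and 367 CPM). For 10 Sertoli-cell markers the shares were 5.97% and 8.99% against 18.1% and 11.8% (165 and 193 against 328 and 259 CPM), and 9 markers of elongating spermatids summed to 4600 and 5813 against 10723 and 6513 CPM. In free RNA H2-Aa was at 19.0 and 15.0 CPM in WT and 36.7 and 23.7 in Dhx37-/-, Cd74 at 28.1 and 23.3 against 45.7 and 31.6, and F13a1 at 49.2 and 73.4 against 30.4 and 44.9. The part of these values in the F13a1 difference and in the numbers of nuclei with a single MHC II UMI was not tested. With every nucleus thinned to 1000 UMIs, the interaction of F13a1 for any MHC II UMI was 2.48 and called. For at least 5 MHC II UMIs against none it was 3.06 without nuclei holding lymphoid or dendritic-cell markers and 2.98 without doublets, and both were called.

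**Figure D5:**
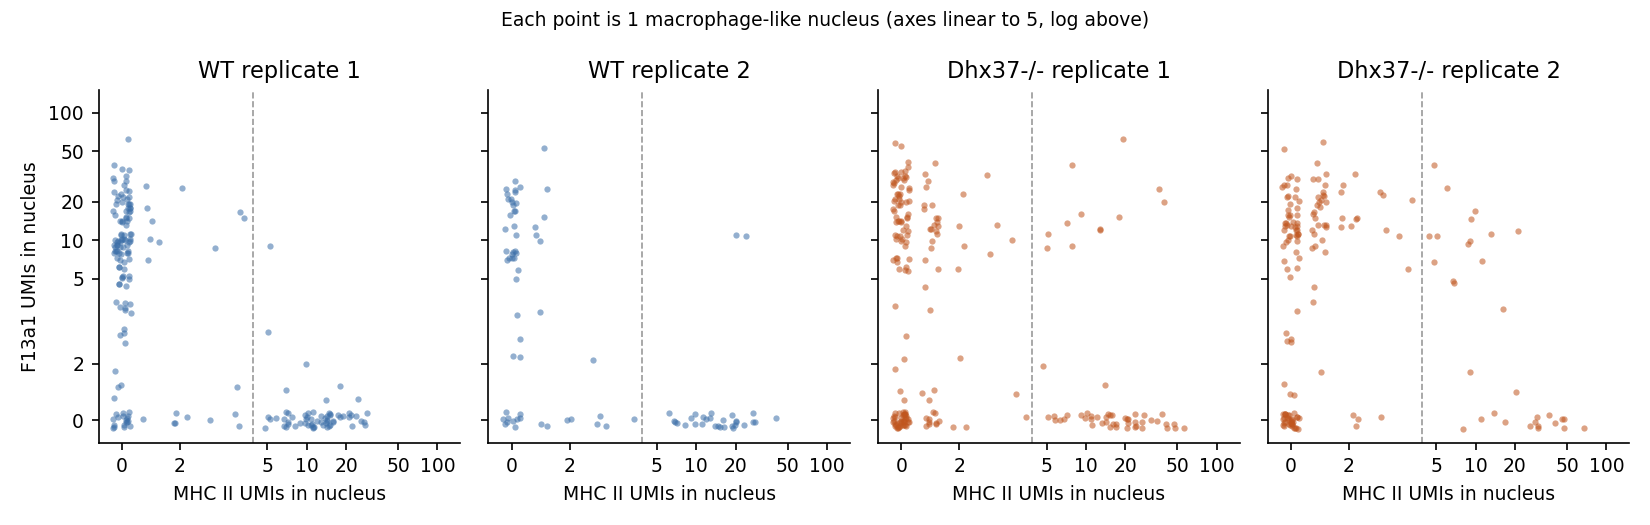
F13a1 UMIs (vertical) against summed MHC II UMIs (horizontal) for each of the 676 macrophage-like nuclei, 1 panel per library, axes linear to 5 and log above, with a small random shift to separate points. Right of the dashed line, which marks at least 5 MHC II UMIs, 9 of 94 WT nuclei have F13a1 and 31 of 89 Dhx37-/- nuclei do.

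Outside the macrophage-like class the 10 genes were set against their level in free RNA, read from barcodes with few UMIs. The first gene above it in every library was Mrc1 in Sertoli-like nuclei, with 445 and 318 CPM in WT and 323 and 366 in Dhx37-/- (237, 38, 378 and 766 UMIs), 7.33 to 11.9 times its level in free RNA. It was found in 89.2%, 82.4%, 53.5% and 81.4% of Sertoli-like nuclei, and in 2.73 to 3.77% of spermatocyte-like nuclei. In the same Sertoli-like nuclei F13a1 was at 0 to 7.51, Csf1r at 0 to 1.88 and Cd74 at 0 to 8.37, all below their level in free RNA, while Cd163 was at 7.69 to 11.3, which was 1.95 to 3.00 times its level there on 33 UMIs. Mrc1 was not called between genotypes (-0.26 ± 0.30, adjusted p = 0.877, 0% of 10337 genes called, 747 at an unadjusted p under 0.05, 0 by DESeq2).

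The second was Cx3cr1 in spermatocyte-like nuclei, which held 55.2% of all its UMIs in nuclei while macrophage-like nuclei held 3.99%. Its level was 127 and 312 in WT and 178 and 132 in Dhx37-/-, overlapping macrophage-like nuclei, and it was found in 35.6%, 65.9%, 51.8% and 42.8% of the nuclei. WT replicate 2 stood above the other 3 libraries, and the change between genotypes (-0.62 ± 0.39, adjusted p = 0.383, 0% of 23106 genes called, 4559 at an unadjusted p under 0.05, 350 by DESeq2) was 0.09 without it and -1.11 (adjusted p = 0.0311) without WT replicate 1. In GENCODE vM21 the gene model of Cx3cr1 spans 168.264 kb, against 19.614 kb in RefSeq, and overlaps other genes, among them Ttc21a at 207.5 to 269.7 CPM on the other strand. Which gene the reads came from was not tested. Cx3cr1 was also above free RNA in every library in round spermatid-like (1.32 to 2.92 times) and elongating spermatid-like nuclei (1.37 to 2.21 times).

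The third was the pair of MHC II beta chains in elongating spermatid-like nuclei. These nuclei held 60.1% of the H2-Ab1 UMIs and 40.2% of the H2-Eb1 UMIs, at 48.9 to 88.7 and 22.8 to 28.0 CPM. This was 1.96 to 2.81 times free RNA for H2-Ab1 and 1.04 to 1.83 times for H2-Eb1, whose lowest library was thus near it. H2-Aa was at 4.61 to 8.93, Cd74 at 3.16 to 7.60 and Ciita at 0 to 0.241 CPM. These were below free RNA in every library (0.24 to 0.40, 0.11 to 0.19 and 0 to 0.44 times). The gene model of H2-Ab1 is 11.731 kb in GENCODE vM21 and 6.192 kb in RefSeq, and an antisense gene, Gm20513, overlaps H2-Eb1. Neither gene was called between genotypes (H2-Ab1 0.41 ± 0.25, adjusted p = 0.518, 0% of 18813 genes called, 2328 at an unadjusted p under 0.05, 29 by DESeq2), though H2-Ab1 was called without WT replicate 2 (0.74, adjusted p = 0.00687).

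F13a1 was at 25.6 to 35.2 CPM in round spermatid-like nuclei, 0.48 to 0.84 times its level in free RNA, and was not called there (0.00925% of 21618 genes were). Endothelial-like nuclei, 8 to 85 in a library, had 24.1 to 46.2 for H2-Aa and 19.0 to 92.5 for Cd74 on 16 and 17 UMIs, which were too few to order the libraries. Ciita was above free RNA in every library in Leydig-like nuclei (1.13 to 16.5 times) and fibroblast-like nuclei (2.71 to 16.9 times), on only 11 and 10 UMIs.

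Genes whose levels followed the members over 36 points, 4 libraries of 9 classes including the unnamed nuclei, were ranked among 25721 genes as a description. Those nearest to the mean of the MHC II genes were Laptm5, Cysltr1, Runx1, Gm26740 and Adap1 (Pearson r 0.958 to 0.966), and those nearest to the macrophage genes were Lilr4b, Csf3r, Sash3, A130071D04Rik and Il10ra (0.979 to 0.981). The points share libraries and depth, and all 10 of these genes were highest where the members were.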

How the data were processed

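Nuclei from whole testes were profiled with 10x 3′ chemistry in 2 WT and 2 Dhx37-/- libraries. The deposited files hold raw UMI counts for all barcodes, which the authors made with Cell Ranger (7.2.0 per the file headers). The submitters' processing notes name GRCm38 and mm10, while the study's methods name another mouse build, so no coordinate was taken from the counts. Whether intronic reads were counted is not given in the sources used here.

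Barcodes were kept where their counts differed from free RNA (barcodes ranked 45000 to 90000, adjusted p under 0.01) or ranked high, and where they had at least 500 UMIs, 500 to 5000 genes and at most 25% mitochondrial UMIs. Nuclei were clustered in Seurat 5.3.0 with 10 PCs at resolution 0.5, on 2000 variable genes less the 7 members among them, and clusters were named from fixed markers. Scrublet (scanpy 1.11.5) marked doublets, which were kept in the main results. Counts were summed by library and class and tested in edgeR 4.0.16 (quasi-likelihood, TMM, default filter on low counts) across all genes, with DESeq2 1.42.0 as an alternative. In simulated data 86.6% of genes changed by a fold of 4 were recovered for the genotype comparison in macrophage-like nuclei. The simulation gave all genes the same spread. Changes as small as those fitted for the 10 genes, the largest being -0.56 on the log2 scale for H2-Eb1, were not simulated. Nuclei with and without an MHC II UMI were compared with library as a term, and genotypes by their interaction. Shares carry Wilson intervals (95%), which cover counting error only. The 5-UMI split, the fits inside it and the fits by class in other nuclei were added after values had been seen. P-values between genotypes rest on the spread between 2 libraries per genotype. Those of the MHC II contrasts rest on how the difference between the 2 kinds of nuclei varies over the 4 libraries. For the interactions this is the variation within each genotype. In edgeR the spread of a gene is also estimated with help from the other genes.

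Every member was described, other list genes by counts of called genes, and the genes of the MHC II contrast by the 8 smallest p in each direction. The members and gene lists were chosen with earlier results of these data known. Some list genes are not reported here by name.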

Additional observations from a re-analysis of the deposited data

Results flagged for a closer look

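The effect of MHC II detection differed between genotypes, by an interaction test in edgeR, for 161 of 6301 genes (89 higher and 72 lower in Dhx37-/-). F13a1 was among them (log2 difference 1.62 ± 0.29, adjusted p = 0.00656), its level being lower with MHC II in both WT libraries and in 1 of the 2 Dhx37-/- libraries. Cd163 was too (2.00 ± 0.40, adjusted p = 0.00934), on 15 and 11 UMIs in the WT nuclei with MHC II. Its call was lost after thinning to 1000 UMIs (1.84, adjusted p = 0.222) and without doublets (1.61, adjusted p = 0.0778). For at least 5 MHC II UMIs against none, F13a1 differed by 3.31 ± 0.36 (adjusted p = 3.5e-05). That split was chosen after F13a1 had been read by MHC II UMIs, so this p is no independent test. Between genotypes the F13a1 call was lost with at least 10 MHC II UMIs. Without nuclei holding T-cell, B-cell or dendritic-cell markers the first F13a1 value was 1.36 (adjusted p = 0.0177) and Cd163 was not called (1.43, adjusted p = 0.0856). The first F13a1 call was lost without WT replicate 1 (1.40, adjusted p = 0.126) and without doublets (1.17, adjusted p = 0.121). The nuclei with MHC II also differed in make-up, since 7 of 82 and 9 of 47 in WT had a single MHC II UMI. In Dhx37-/- these were 35 of 105 and 31 of 81. F13a1 was higher in such nuclei than at 10 or more MHC II UMIs in each library. The part of this in the interaction was not tested. With 2 libraries in a genotype, no search for a library far from the others was made.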

How the results depend on the processing

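Genes called between genotypes in macrophage-like nuclei (54) numbered 182 with no filter on low counts, 18 in DESeq2, 29 after thinning and 54 to 307 with a library left out. Over all nuclei (0) they were 131, 273 and 18 to 6062 in the first, second and last of these, and 35 with free RNA. A marker gate of 8956 nuclei, only 638 of which were macrophage-like and which is thus another population, gave 0 between genotypes and 5866 for MHC II, with Csf1r at -0.026, Cd163 -0.15 and F13a1 -0.10 between genotypes, and F13a1 1.58, Mrc1 1.88 and Cd163 1.73 for MHC II. For MHC II (23), 157 were called with no filter, 122 after thinning, 91 without doublets, 79 with at least 2 UMIs, 92 without lymphoid or dendritic-cell markers, 200 with at least 5 UMIs, 405 with both, and 0 to 41 with a library left out. F13a1 (-0.97) was called at -1.03 with no filter, -1.63 thinned, -1.15 without those markers, -2.41 with at least 5 UMIs and -2.58 with both, and ran from -1.40 to -0.62 with a library left out. For the difference between genotypes (161) the counts were 43 thinned, 69 without markers, 68 with at least 5 UMIs, 43 and 53 with that and without markers or doublets, 29 without doublets, and 51 to 126 with a library left out, with F13a1 at 1.17 without doublets and 1.11 to 2.10. With at least 5 UMIs (100) the genotypes gave 28 in DESeq2, 16 without markers, 9 without doublets, 17 with at least 10 UMIs (F13a1 2.51), 232 with at least 2, and 69 to 170 with a library left out.

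The replicate numbers did not pair the libraries (correlation of same-numbered deviations -0.099 in macrophage-like and -0.187 in all nuclei). A replicate block gave 176 calls in macrophage-like nuclei, 15 over all nuclei and 169 with at least 5 UMIs, crossed numbers gave 997 over all nuclei, and the MHC II contrast with no replicate block gave 10.

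Signs turned for values that were mostly not called. Thinning gave Csf1r -0.052 and Cd163 -0.24 between genotypes and Csf1r -0.25 for the difference, and free RNA gave F13a1 -0.16 over all nuclei. Without lymphoid or dendritic-cell markers Mrc1 was 0.054 between genotypes, Csf1r -0.11 for MHC II, -0.013 with at least 5 UMIs and 0.25 with none, where Cd163 was 0.010 and F13a1 0.13. Csf1r was -0.032 for at least 5 UMIs against none and -0.26 without markers, -0.33 and -0.14 for the difference without markers or doublets, and -0.18 and -0.26 between genotypes without doublets or with at least 10 UMIs. Cx3cr1 was 0.050 for the difference with at least 2 UMIs. With a library left out, the ranges that crossed 0 were H2-Ab1 -0.51 to 0.45, Ciita -0.91 to 0.079 and Cd163 -0.25 to 0.40 in macrophage-like nuclei. Over all nuclei they were H2-Aa -0.41 to 0.59, H2-Ab1 -0.091 to 0.83, H2-Eb1 -0.52 to 0.56, Cd74 -0.026 to 0.72, Ciita -0.15 to 0.62, Mrc1 -0.17 to 1.01, Cx3cr1 -0.98 to 0.13, Cd163 -0.12 to 0.57 and F13a1 -0.17 to 0.52. Others were Csf1r -0.020 to 0.26 for MHC II, -0.063 to 0.12 with at least 5 UMIs and -0.21 to 0.037 with none, where F13a1 ran -0.50 to 0.013, and Cx3cr1 -0.48 to 0.37 for the difference. Mrc1 in Sertoli-like nuclei ran -0.50 to 0.15, Cx3cr1 in spermatocyte-like -1.11 to 0.094 and in round spermatid-like -0.85 to 0.37, and in elongating spermatid-like nuclei H2-Eb1 ran -0.012 to 0.22 and H2-Ab1 0.20 to 0.74.

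The share of nuclei with an MHC II UMI (Dhx37-/- minus WT, -1.60 percentage points) was 0.912 under the gate, 1.97 without markers, 1.33 unthinned and -5.20 to 1.99 with a library left out. The share with both kinds of UMI (-1.39) was 3.43 without markers and -3.59 to 0.806. The cause of these changes was not tested. Of the remaining values, 109 of the comparisons' own and 412 others were counted as unchanged. For a single gene this meant the same direction and the same side of the threshold. For a count of called genes it meant a similar number, and for a share the same direction. Ciita rests on 73 UMIs in macrophage-like nuclei, and Cd163 had too few counts to be tested between genotypes with at least 5 MHC II UMIs.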
